A study of Mus musculus with 12 samples.

Results

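The 10 genes described here encode the Fos proteins (Fos, Fosb, Fosl1 and Fosl2), the Jun proteins (Jun, Junb and Jund) and 3 early growth response (EGR) proteins (Egr1, Egr2 and Egr3). They were taken by symbol from a table of 29956 named genes. All 10 were present, and all 10 were among the 18218 genes with enough counts to test. Skin was taken from B6.BKS(D)-Leprdb/db mice, a diabetic strain in which the leptin receptor does not work. Full-thickness punch wounds in the back received Alcaligenes faecalis, a Gram-negative bacterium (A. faecalis group), Staphylococcus aureus, a Gram-positive skin pathogen (S. aureus group), or PBS with glycerol (vehicle group), the bacteria being given in PBS. The wounds were taken on day 3 from 4 mice per group, and their RNA was sequenced after removal of ribosomal RNA. Every group was wounded and carried the same genotype, and neither the age nor the sex of the mice is given in the sources used here. A whole piece of skin was sequenced, so in what follows fewer cells of a type and less RNA per cell cannot be told apart.

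Fos and Jun proteins bind DNA as dimers through a leucine zipper, and the dimer, called AP-1, recognises a short palindromic site. Fos proteins cannot pair with themselves and need a Jun partner, whereas Jun proteins can also pair with each other. EGR proteins bind GC-rich DNA through zinc fingers. Fos, Fosb, Jun, Junb and the EGR genes are classic immediate-early genes: growth factors, cytokines, microbial products and wounding switch them on through MAP kinases without new protein synthesis, and their mRNAs are short-lived. Fosl1 and Fosl2 are switched on later, in part by AP-1 itself. In injured skin AP-1 is active at the edge of the wound and in infiltrating cells, and collagenase and stromelysin genes are among its best-known targets.

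Libraries held 38.4 to 71.3 M estimated counts, with means of 57.2 ± 12 M in the A. faecalis group, 48.9 ± 9.62 M in the S. aureus group and 56.1 ± 4.58 M in the vehicle group (SD, n = 4 each). Levels below are CPM, estimated counts per M (mega) of library size, scaled by the TMM method. Differences are log2 fold changes with their standard error (SE), and p-values come from the quasi-likelihood test of edgeR, adjusted by the Benjamini-Hochberg method over all genes tested. A gene was called at an adjusted p under 0.05. Genes that define keratinocytes were present in every library: all 7 basal keratinocyte markers were tested, and their summed level was 720 to 1180 CPM with A. faecalis, 931 to 2380 CPM with S. aureus, and 1210 to 1940 CPM in the vehicle group. Neutrophil markers differed widely between libraries. The 7 marker genes (S100a8, S100a9, Cxcr2, Csf3r, Ly6g, Retnlg and Ngp) summed to 1670 to 3770 CPM with A. faecalis, 9060 to 14200 CPM with S. aureus, and 690 to 8420 CPM in the vehicle group, and none of them was at 0 in any group.

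S. aureus wounds held more mRNA of 2 members than vehicle wounds. Egr1 and Fos rose, and the other 8 members did not pass the test, although all 10 had a positive log2 fold change. Their median log2 fold change was 0.78, where the median of all genes was -0.04. Being called higher was a property of 3.87% of all genes tested in this comparison. The 4 S. aureus libraries lay above all 4 vehicle libraries for 5 members (Fos, Fosl1, Fosl2, Junb and Egr1), against 7.56% of all genes.

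Egr1 encodes the founding early growth response factor. It stood at 173, 214, 346 and 282 CPM in S. aureus replicates 1 to 4, against 52.3, 104, 43.0 and 117 CPM in vehicle replicates 1 to 4. Every S. aureus library was above every vehicle library, with vehicle replicates 2 and 4 above vehicle replicates 1 and 3. The log2 fold change was 1.69 (SE 0.327, edgeR adjusted p = 0.0166), a 3.22-fold higher level.

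Fos encodes the partner that gives AP-1 its strongest activating form. It stood at 138, 115, 204 and 180 CPM in S. aureus replicates 1 to 4, against 47.8, 95.4, 43.4 and 71.5 CPM in vehicle replicates 1 to 4. The groups did not overlap, with vehicle replicate 2 nearest to the S. aureus group. The log2 fold change was 1.30 (SE 0.259, edgeR adjusted p = 0.0185), or 2.47-fold.

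Junb and Fosl1 had folds of similar size to Fos and missed the threshold. Junb, which in mouse keratinocytes restrains inflammation of the skin, stood at 460, 626, 766 and 785 CPM with S. aureus, against 165, 386, 131 and 409 CPM with vehicle (log2 fold change 1.27, SE 0.351, edgeR adjusted p = 0.0507). Fosl1, also called Fra-1 and linked to migration of epithelial cells, stood at 25.9, 41.9, 37.4 and 42.0 CPM with S. aureus, against 6.66, 20.7, 4.26 and 21.4 CPM with vehicle (log2 fold change 1.48, SE 0.443, adjusted p = 0.0645). In both genes the groups did not overlap, and vehicle replicates 2 and 4 were the high vehicle libraries. Fosl2, or Fra-2, which takes part in epidermal differentiation in mice, stood at 471, 624, 618 and 562 CPM with S. aureus, against 212, 449, 182 and 436 CPM with vehicle (log2 fold change 0.83, SE 0.268, adjusted p = 0.0772). Its highest vehicle library lay just under its lowest S. aureus library.

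The remaining 5 members overlapped between S. aureus and vehicle. Fosb, the closest relative of Fos, averaged 9.04 ± 2.80 CPM in S. aureus wounds and 5.46 ± 2.17 CPM in vehicle wounds (SD, n = 4 each; log2 fold change 0.73, edgeR adjusted p = 0.13). Jun, which in mice drives expression of epidermal growth factor receptor in keratinocytes, averaged 262 ± 107 CPM in S. aureus wounds and 189 ± 82.7 CPM in vehicle wounds (log2 fold change 0.48, adjusted p = 0.397). Jund, the Jun gene that most cells express without a stimulus, averaged 150 ± 20.1 CPM in S. aureus wounds and 145 ± 53.2 CPM in vehicle wounds (log2 fold change 0.04, SE 0.211, adjusted p = 0.922). Egr2, also known as Krox-20 and needed for myelination by Schwann cells, averaged 14.3 ± 2.05 CPM in S. aureus wounds and 13.5 ± 2.86 CPM in vehicle wounds (log2 fold change 0.09, SE 0.168, adjusted p = 0.781). Egr3, which with Egr2 restrains T cell activation in mice, averaged 2.55 ± 0.401 CPM in S. aureus wounds and 1.83 ± 0.97 CPM in vehicle wounds (log2 fold change 0.48, SE 0.409, adjusted p = 0.484). Whether the response of Egr1 or Fos differed from that of these genes was not tested.

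The calls of Egr1 and Fos depended on single libraries. Without S. aureus replicate 3 neither was called (largest adjusted p over the 12 leave-one-out fits 0.0563 for Egr1 and 0.06 for Fos by edgeR), Fos also lost its call without S. aureus replicate 4, and no member was called when only the S. aureus and vehicle libraries were fitted. Without vehicle replicate 2 or vehicle replicate 4, 5 members were called (Egr1, Fos, Fosl1, Fosl2 and Junb). DESeq2 also called these 5, and over all genes it called 2876 where edgeR called 1246.

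**Figure D1:**
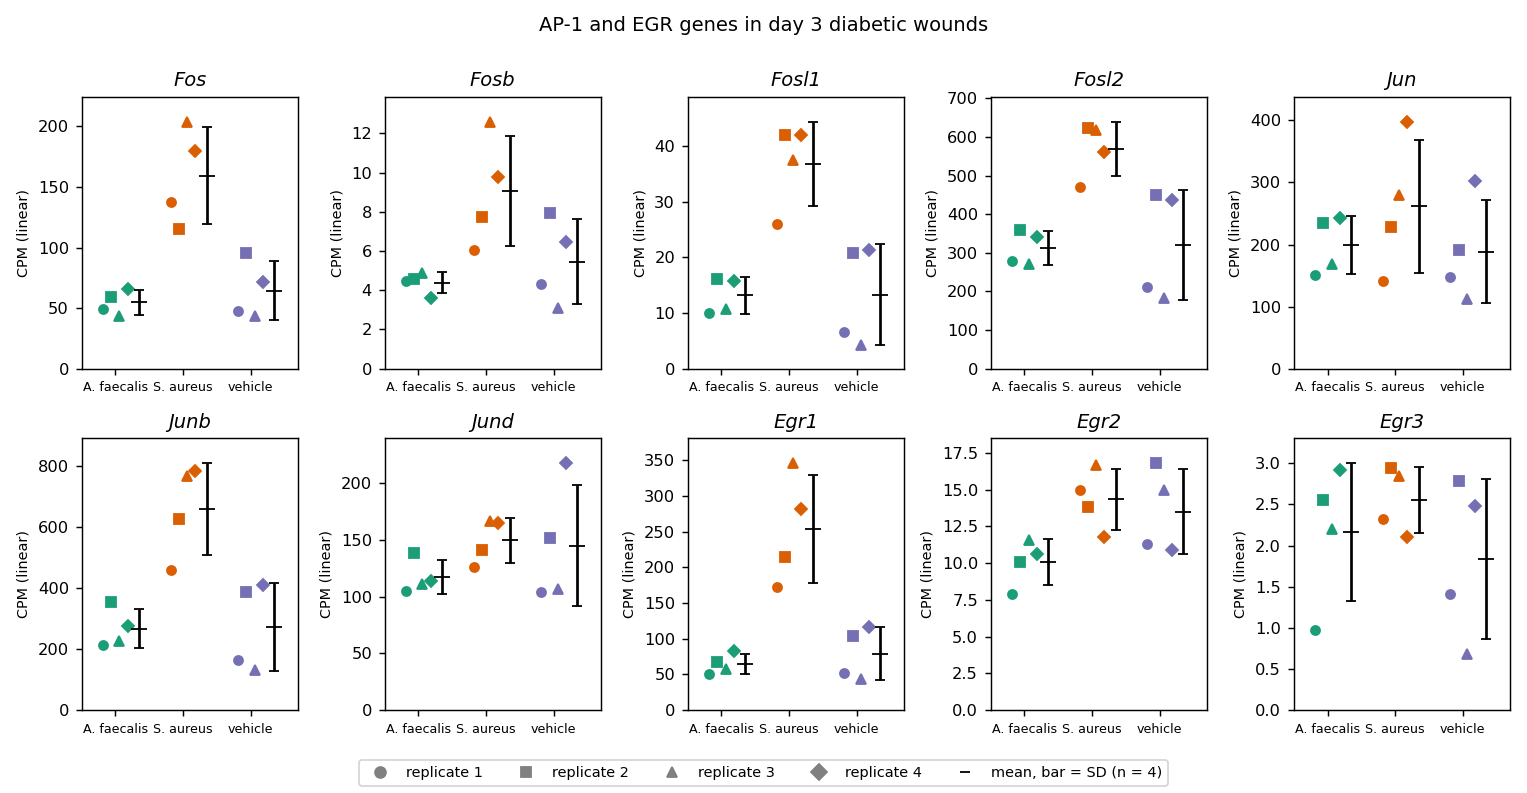
CPM of each of the 10 genes in every library (linear axis from 0), grouped as A. faecalis, S. aureus and vehicle; marker shapes give the replicate number, and black bars the mean and SD of 4 libraries. For Fos, Fosl1, Fosl2, Junb and Egr1 all S. aureus points lie above all vehicle points, and in most panels vehicle replicates 2 and 4 lie above vehicle replicates 1 and 3.

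With A. faecalis none of the 10 genes differed detectably from vehicle. EdgeR called 0 members, limma-voom and DESeq2 also 0, and 1 member (Egr2) had an unadjusted p under 0.05. Of all genes tested, 0.011% were called in this comparison and 7.68% had an unadjusted p under 0.05. The median log2 fold change of the members was -0.14, where the median of all genes was -0.03, and no member had groups that did not overlap, against 4.05% of all genes. Fos stood at 49.5, 59.5, 43.7 and 66.0 CPM in A. faecalis replicates 1 to 4, next to the vehicle values above, a log2 fold change of -0.24 (SE 0.255, edgeR adjusted p = 0.822). Egr1 stood at 51.1, 67.3, 57.7 and 82.6 CPM with A. faecalis, with a log2 fold change of -0.29 (SE 0.319) that was not called. For both genes the 4 A. faecalis libraries fell between the lowest and the highest vehicle library.

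The same held for 8 of the 10 members, the exceptions being Egr2 and Egr3, while 30.8% of all genes tested had an A. faecalis range inside the vehicle range. Egr2 stood at 7.89, 10.1, 11.6 and 10.6 CPM with A. faecalis, against 11.3, 16.8, 15 and 10.9 CPM with vehicle (log2 fold change -0.42, SE 0.168, unadjusted p = 0.0271 and edgeR adjusted p = 0.601). It is the one member for which most A. faecalis libraries were lower than every vehicle library. Fosl1 stood at 10.0, 16.2, 10.7 and 15.7 CPM, a log2 fold change of -0.01 with an SE of 0.436. That SE is the largest of the 10, and the vehicle values of Fosl1 covered a 5.02-fold range. Junb (-0.03, SE 0.345), Fosl2 (-0.03, SE 0.267), Jun (0.08, SE 0.337), Jund (-0.31, SE 0.212), Fosb (-0.31, SE 0.287) and Egr3 (0.24, SE 0.408) were not called either, Jund and Fosb having a log2 fold change larger than its SE.

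A. faecalis and S. aureus wounds differed in 5 members. Egr1, Fos, Junb, Fosb and Fosl1 were lower with A. faecalis, and none was higher. Being called lower was a property of 7.62% of all genes tested in this comparison. All 10 members had a negative log2 fold change with a median of -0.95, where the median of all genes was 0.02. For 7 members (those 5, Fosl2 and Egr2) every A. faecalis library was below every S. aureus library, against 11.8% of all genes.

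Egr1 had the largest difference, with 51.1 to 82.6 CPM in A. faecalis libraries and 173 to 346 CPM in S. aureus libraries (log2 fold change -1.97, SE 0.33, edgeR adjusted p = 0.00387). Fos followed with 43.7 to 66.0 CPM in A. faecalis libraries and 115 to 204 CPM in S. aureus libraries (-1.54, SE 0.261, adjusted p = 0.00403). The gap between the groups was wider than the range of the A. faecalis libraries in both genes. Fosl1 averaged 13.2 ± 3.23 CPM with A. faecalis and 36.8 ± 7.56 CPM with S. aureus (-1.49, SE 0.443, adjusted p = 0.0477). Junb averaged 267 ± 63.2 CPM with A. faecalis and 659 ± 151 CPM with S. aureus (-1.30, SE 0.351, adjusted p = 0.032). Fosb stood at 4.45, 4.59, 4.88 and 3.61 CPM in A. faecalis replicates 1 to 4, against 6.06, 7.76, 12.6 and 9.76 CPM in S. aureus replicates 1 to 4 (-1.04, SE 0.288, adjusted p = 0.0353). The groups of Fosb did not overlap, and its A. faecalis values lay close together.

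Fosl2 averaged 313 ± 44.4 CPM with A. faecalis and 569 ± 71.2 CPM with S. aureus and missed the threshold (log2 fold change -0.86, SE 0.269, edgeR adjusted p = 0.0558). Egr2 averaged 10.0 ± 1.56 CPM with A. faecalis and 14.3 ± 2.05 CPM with S. aureus (-0.51, SE 0.169, adjusted p = 0.0677). In both the groups were separate. Jun (-0.40, adjusted p = 0.48), Jund (-0.35, adjusted p = 0.302) and Egr3 (-0.24, adjusted p = 0.739) overlapped between the bacteria. The calls of Egr1 and Fos held in all 12 fits that left out 1 library. Fosb, Fosl1 and Junb were called in 5, 4 and 6 of those fits, and only Egr1 and Fos were left without any one of A. faecalis replicates 1, 3 or 4 or S. aureus replicates 2, 3 or 4, while Junb was also kept without A. faecalis replicate 2. Fosl1 lost its call without S. aureus replicate 1 too. The comparisons of A. faecalis and of S. aureus with vehicle share the 4 vehicle libraries, and this contrast is the direct test between the bacteria.

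**Figure D2:**
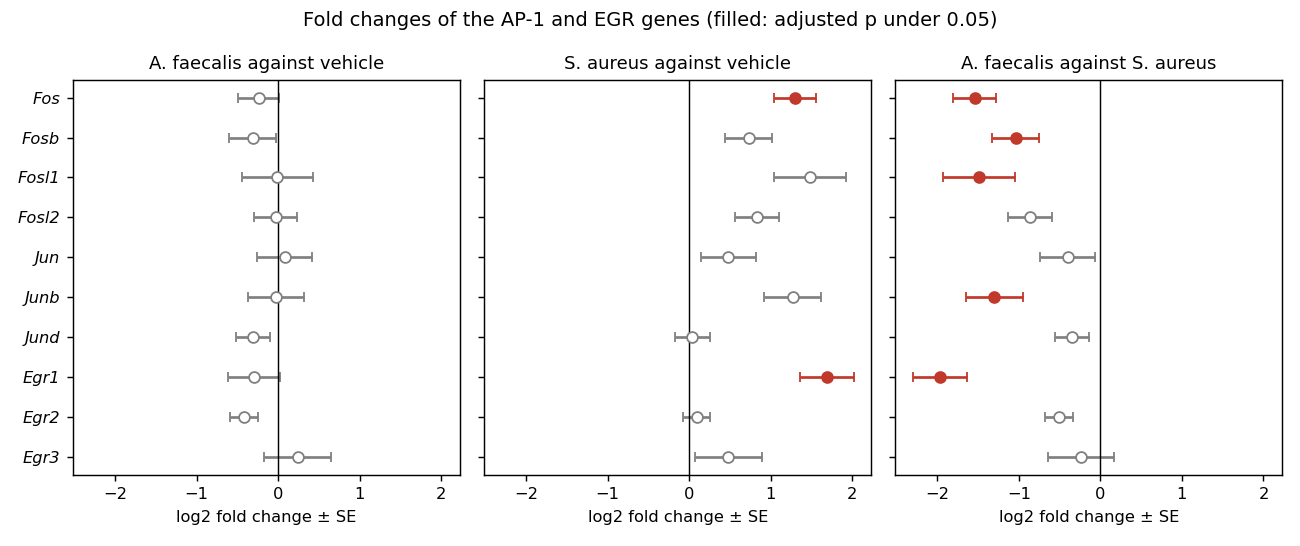
Log2 fold changes of the 10 genes with their standard errors in the 3 comparisons, from one edgeR fit of 12 libraries; filled red points have an adjusted p under 0.05. No gene is filled for A. faecalis against vehicle, Fos and Egr1 are filled to the right for S. aureus against vehicle, and 5 genes are filled to the left for A. faecalis against S. aureus.

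The members varied together from mouse to mouse, with Egr2 apart when all 12 libraries were used. In the vehicle group replicates 2 and 4 were the highest libraries for 9 of 10 members, and replicate 3 was the lowest for 8. In the A. faecalis group replicates 2 and 4 were the highest for 8 of 10. The spread in the vehicle group was wide: the coefficient of variation had a median over members of 19.7% with A. faecalis, 21.7% with S. aureus and 44.2% with vehicle, where the medians over all genes were 13.7%, 12.8% and 18.6%. All 10 members varied less with A. faecalis than with vehicle, as did 67% of all genes.

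After each group's mean was subtracted from the log2 CPM, the correlation over the 12 libraries was computed for all 45 pairs of members and for each member with 10 cell type marker sums, 145 relations in all. Among the 36 pairs without Egr2 every r was positive (0.58 to 0.98, median 0.82), and 15 had an adjusted p under 0.05 by r, 7 by rho. The 9 pairs with Egr2 ranged from -0.26 to 0.28, and none passed. Without vehicle replicates 3 and 4, r with Egr2 became 0.49 for Fosl1, 0.45 for Junb and 0.54 for Egr1. For the other pairs with Egr2, where other libraries were left out, it ran from -0.05 (Jun) to 0.26 (Egr3). Some pairs without Egr2 weakened too. Without vehicle replicates 2 and 3, r with Egr3 was 0.15 for Fosb and 0.34 for Fos. Fosl1 and Junb had r = 0.97 and rho = 0.97 (exact permutation within groups, p = 0.00123 and 0.00094, adjusted p = 0.0245 and 0.0273), and r was 0.94 without vehicle replicates 3 and 4, the libraries farthest from the median. Fosl1 and Fosl2 had r = 0.98 and rho = 0.95 (exact permutation p = 0.0026 and 0.00586, adjusted p = 0.0266 and 0.0531), with r = 0.97 without the same libraries. Fos and Egr1 had r = 0.88 and rho = 0.87 (exact permutation p = 0.00875 and 0.0135, adjusted p = 0.047 and 0.0725), with r = 0.84 without vehicle replicates 2 and 3. These are relations of whole-skin libraries, and the vehicle libraries, being the most spread, weigh most in them.

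Neutrophil marker RNA moved with most members within groups, and between the S. aureus group and each of the others. For A. faecalis against vehicle the median log2 fold change was -0.89 for the 7 markers and -0.14 for the members. In that comparison no marker and no member was called. The sum of the 7 markers was 1670, 3770, 1880 and 3660 CPM in A. faecalis replicates 1 to 4, 9060, 10800, 14200 and 10600 CPM in S. aureus replicates 1 to 4, and 2170, 5230, 690 and 8420 CPM in vehicle replicates 1 to 4. In the A. faecalis and vehicle groups the high libraries were thus the same as for most members. Of the 7 markers, 6 were lower with A. faecalis than with S. aureus by the same test, Csf3r being the exception, and none passed the test for S. aureus against vehicle. Within groups 9 of 10 members had a positive r with the neutrophil sum, and 6 had an adjusted p under 0.05 by r (Fosl1, Fosl2, Jun, Junb, Egr1 and Egr3), of which 3 also did by rho (Junb, Egr1 and Egr3). For Fosl1 r was 0.94 and rho 0.92 (exact permutation p = 0.00246 and 0.00977, adjusted p = 0.0266 and 0.0675), and r was 0.87 without vehicle replicates 3 and 4. For Egr1 r was 0.88 and rho 0.85 (exact permutation p = 0.000289 and 0.00224, adjusted p = 0.021 and 0.0357), and r was 0.84 without the same libraries. Egr2 had an r of -0.08 (rho = 0.10; exact permutation p = 0.867 and 0.817, adjusted p = 0.944 and 0.895), which became 0.61 without vehicle replicates 3 and 4. The part of neutrophils in the differences of the members was not tested.

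Macrophage markers summed to 4470 to 6620 CPM with A. faecalis, 2940 to 3670 CPM with S. aureus, and 3500 to 5910 CPM in the vehicle group, a range that was lowest with S. aureus and overlapped that of vehicle. Within groups all 10 members had a positive r with this sum (0.34 to 0.8, median 0.62). None of these had an adjusted p under 0.05 for r or rho by the exact permutation test. Adipocyte markers, highest in vehicle replicate 3, had a negative r within groups with 9 of 10 members, of which 5 had an adjusted p under 0.05 for r and 3 for rho by the exact permutation test. For Fosl1 this r was -0.82 (-0.63 without S. aureus replicate 1 and vehicle replicate 3). The part of these cells in the results was not tested.

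**Figure D3:**
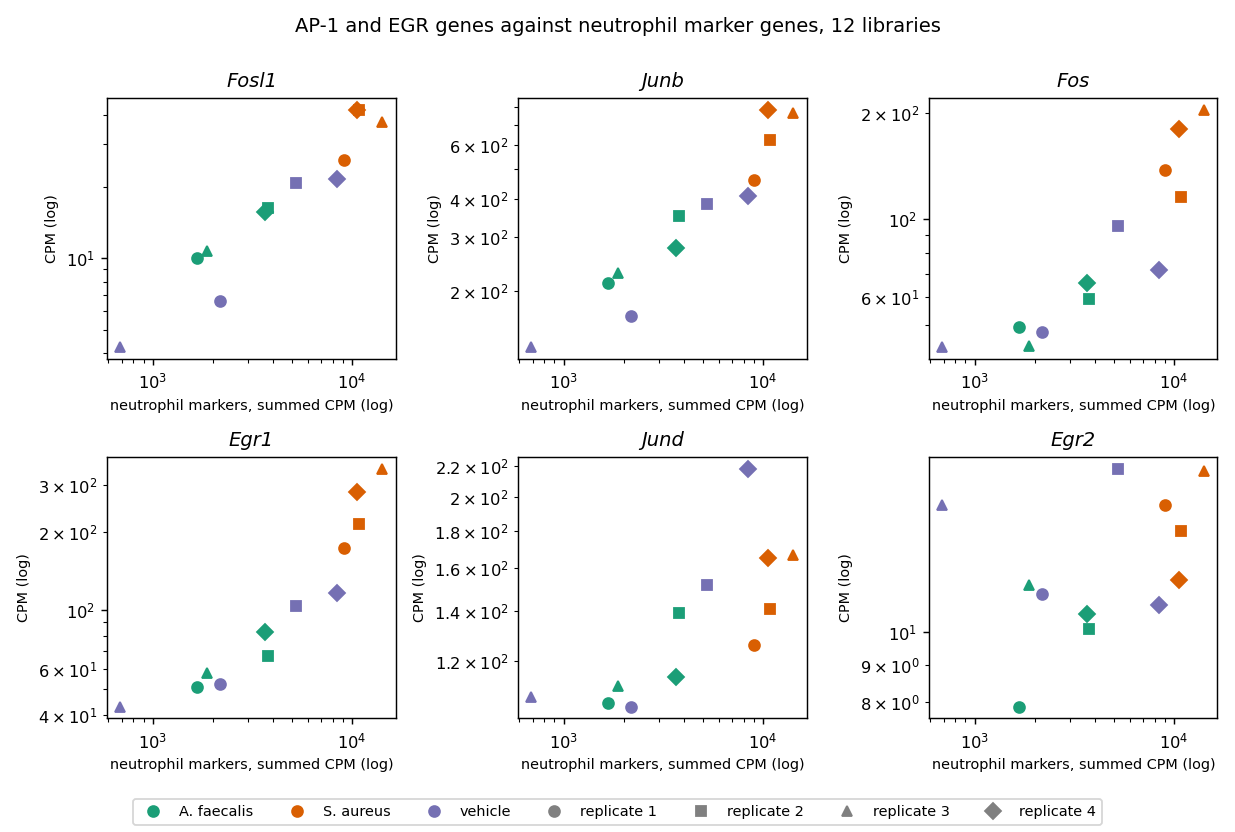
CPM of 6 of the genes against the summed CPM of 7 neutrophil marker genes in the 12 libraries (both axes log); colours give the group and shapes the replicate. Fosl1, Junb, Fos and Egr1 lie along rising bands from vehicle replicate 3 (690 CPM of markers) to the S. aureus libraries (9060 to 14200 CPM), Jund is highest in vehicle replicate 4, and Egr2 follows no such band.

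The genes whose deviations from the group mean were most like those of Fosl1 over the 12 libraries were the member Fosl2, Dmxl2 and Pgs1 (r = 0.98 each). Neither Dmxl2 nor Pgs1 was called in any comparison by edgeR. Dmxl2 averaged 350 ± 42.1 CPM with A. faecalis and 325 ± 54.9 CPM with S. aureus. Among those most like Fos were Wdr70 and Atp2b1 (r = 0.91 each). Those most like Egr1 were Atg9a (r = 0.99), Whsc1l1 and Mlxip (r = 0.98 each). Whsc1l1, which encodes a histone methyltransferase, rose by 0.59 with S. aureus against vehicle on the log2 scale (SE 0.144, edgeR adjusted p = 0.0338).

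Upstream of the members, some kinase genes changed in mRNA. The counts of the lists that follow stand beside 6.84% of all genes called in either direction for S. aureus against vehicle and 12.7% for A. faecalis against S. aureus. Of 17 MAP kinases and MAP kinase kinases, 3 rose with S. aureus against vehicle (Map2k4, Mapk13 and Mapk11) and none fell. The list's median log2 fold change was 0.19, where that of all genes was -0.04. Map2k4, a kinase that activates the Jun N-terminal kinases, stood at 123, 154, 199 and 177 CPM with S. aureus, against 78.0, 99.5, 72.9 and 107 CPM with vehicle (log2 fold change 0.87, SE 0.152, edgeR adjusted p = 0.0109). These groups did not overlap. Mapk13, a p38 kinase of epithelia, averaged 20.2 ± 2.67 CPM with S. aureus, and 9.25 ± 3.41 CPM in the vehicle group (1.13, SE 0.292, adjusted p = 0.0422), a call that held in 4 of 12 leave-one-out fits. Mapk11, another p38 kinase, rose by 0.45 (SE 0.118, adjusted p = 0.0434), held in 3 of 12. With A. faecalis against vehicle 0 of 17 were called, and against S. aureus 5 were lower, Map2k4, Mapk13 and Mapk11 among them (log2 fold changes -0.98, -1.71 and -0.54, adjusted p = 0.00264, 0.00457 and 0.0131).

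Serum response factor (Srf) and its partners carry the MAP kinase signal to the Fos and Egr1 genes. None of the 7 genes of that list was called against vehicle with either bacterium by edgeR. Srf itself averaged 37.1 ± 4.02 CPM with A. faecalis and 46.5 ± 3.39 CPM with S. aureus, and was lower with A. faecalis (-0.33, SE 0.097, adjusted p = 0.0471), a call that held in 3 of 12 leave-one-out fits. MAP kinase signalling also induces genes that then dampen it, and 2 of these rose with S. aureus against vehicle. Dusp6, a phosphatase of ERK, stood at 164, 175, 249 and 211 CPM with S. aureus, against 79.8, 93.4, 82.9 and 112 CPM with vehicle, and rose by 1.12 (SE 0.152, adjusted p = 0.00648). Dusp5, a nuclear ERK phosphatase, rose by 1.29 (SE 0.33, adjusted p = 0.0407), held in 3 of 12 leave-one-out fits. The other 11 of 13 feedback genes, which include the Sprouty and Spred genes, were not called, and the median of the list was 0.08. With A. faecalis none of the 13 was called against vehicle, and Dusp6 and Dusp5 were lower than with S. aureus (-1.04 and -1.51, adjusted p = 0.00212 and 0.0132).

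Few other immediate-early genes passed the test. Of 23 genes on that list, Myc and Btg2 rose with S. aureus against vehicle, none fell, and the median log2 fold change was 0.43. Myc, a growth-promoting transcription factor, stood at 54.9, 59.0, 61.4 and 62.0 CPM with S. aureus, against 37.7, 41.3, 28.6 and 29.1 CPM with vehicle (0.80, SE 0.114, edgeR adjusted p = 0.00776). Its S. aureus libraries were tightly grouped and clear of the vehicle range. Btg2, an antiproliferative gene, rose by 0.97 (SE 0.256, adjusted p = 0.0445), a call that held in 3 of 12 leave-one-out fits. Against S. aureus, A. faecalis wounds were lower in 5 of the 23, with log2 fold changes of -0.80 for Myc, -1.10 for Cyr61, -1.20 for Csrnp1 and -1.0 for Btg2 (adjusted p = 0.00182, 0.0136, 0.0161 and 0.0263), and in Ctgf. Cyr61 and Ctgf encode matricellular proteins. With A. faecalis against vehicle 0 of 23 were called and the median was -0.13.

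The other proteins that can pair with Fos or Jun moved in both directions. Of 13 genes, Mafk rose and Maf fell with S. aureus against vehicle, and the median was 0.04. Maf, a large Maf protein with an activating domain that macrophages and T cells use, stood at 219, 180, 183 and 188 CPM with S. aureus, against 331, 308, 296 and 339 CPM with vehicle (log2 fold change -0.73, SE 0.0981, edgeR adjusted p = 0.00648). Mafk, a small Maf protein without an activating domain, rose by 0.74 (SE 0.158, adjusted p = 0.0227), a call lost without S. aureus replicate 3 or 4 (adjusted p up to 0.0745). Batf, a partner of Jun proteins in leukocytes, stood at 21.9, 53.3, 28.7 and 44.8 CPM with A. faecalis, against 8.83, 10.3, 10.6 and 9.42 CPM with S. aureus, and was higher with A. faecalis (1.92, SE 0.429, adjusted p = 0.014). This is the opposite direction to Fos, Fosb and Fosl1 in the same comparison. Its relative Batf2 was lower with A. faecalis there, in the direction of Fos (-1.2, SE 0.313, adjusted p = 0.0279). Of the 13 genes, 3 were called higher and 2 lower with A. faecalis than with S. aureus. Some macrophage markers went in the direction of Maf. Of the 6 markers, Emr1 fell with S. aureus against vehicle, and Emr1, Csf1r and C1qa were higher with A. faecalis than with S. aureus. For A. faecalis against vehicle the median log2 fold change of the markers was 0.34, with none called, and Maf had -0.02. The part of macrophages in these values was not tested. Atf3, a stress-induced relative, averaged 32.2 ± 12.7 CPM with A. faecalis, 36.1 ± 10.9 CPM with S. aureus, and 32.7 ± 6.18 CPM in the vehicle group and was not called in any comparison by edgeR. The corepressors of EGR proteins were not called in any comparison either. Nab1 averaged 165 ± 23.6, 150 ± 16.6 and 150 ± 21.3 CPM with A. faecalis, S. aureus and vehicle, and Nab2 34.4 ± 1.8, 40.5 ± 5.91 and 36.3 ± 4.29 CPM. Egr4, the remaining EGR gene, was not tested, with 1 estimated count in all with A. faecalis, 4 with S. aureus and 1 with vehicle.

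Textbook targets of AP-1 include matrix metalloproteinases, the urokinase receptor Plaur and the growth factor Hbegf. Of 17 such genes, Mmp10, Plaur, Mmp3 and Hbegf rose with S. aureus against vehicle, none fell, and the median log2 fold change was 0.71. Plaur stood at 209, 341, 369 and 384 CPM with S. aureus, against 52.9, 122, 58.7 and 129 CPM with vehicle, with the same high vehicle libraries as most members (log2 fold change 1.85, SE 0.306, edgeR adjusted p = 0.0107). Mmp3 stood at 824, 725, 734 and 575 CPM with S. aureus, against 229, 322, 88.7 and 214 CPM with vehicle (1.75, SE 0.295, adjusted p = 0.0107). Mmp10 encodes stromelysin-2. It stood at 2.30, 2.60, 2.25 and 2.44 CPM in A. faecalis replicates 1 to 4, at 21.1, 24.8, 21.4 and 17.6 CPM in S. aureus replicates 1 to 4, and at 6.45, 10.3, 9.94 and 10.7 CPM in vehicle replicates 1 to 4. It was the 1 gene of the 17 that fell with A. faecalis against vehicle (-1.96, SE 0.165, adjusted p = 0.000994), a comparison in which no Fos, Jun or EGR gene was called. In that comparison 15 of the 17 had a negative log2 fold change, with a median of -0.41 where that of all genes was -0.03. For 4 of the 17 the A. faecalis libraries lay below all vehicle libraries. Groups that did not overlap, in either direction, were a property of 4.05% of all genes. The summed basal keratinocyte markers were lower there too, without overlap, at 720 to 1180 CPM with A. faecalis and 1210 to 1940 CPM with vehicle. None of the 7 markers was called, and only 2 (Krt14 and Trp63) had groups that did not overlap. The part of keratinocytes was not tested. Mmp13 averaged 15.4 ± 5.36 CPM with A. faecalis, 115 ± 37.9 CPM with S. aureus, and 69.8 ± 33.4 CPM in the vehicle group. The A. faecalis libraries were below all others, with the difference from S. aureus called (-2.89, SE 0.386, adjusted p = 0.00146) and that from vehicle not (-2.18, adjusted p = 0.16). In all, 7 of the 17 were lower with A. faecalis than with S. aureus, with a list median of -0.70. Neutrophil markers were lower with A. faecalis than with S. aureus too, as given above, and their part in these differences was not tested.

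The stretches below show the AP-1 site in 4 genes of this list that hold it and were called lower with A. faecalis than with S. aureus. Hbegf, also called lower there, was not among the genes in which the site was found. Only 11 of the 17 genes had a promoter entry, and whether Hbegf was among them is not given here. The stretches are RefSeq promoter sequences of the mouse build GRCm38.p6, read on the strand of the gene. They run from 150 bases before to 30 bases after the start of the gene, with the site in capitals. The site searched was TGACTCA on either strand, so that a copy on the opposite strand reads TGAGTCA.
Mmp10, chr9:7502192-7502371, plus strand: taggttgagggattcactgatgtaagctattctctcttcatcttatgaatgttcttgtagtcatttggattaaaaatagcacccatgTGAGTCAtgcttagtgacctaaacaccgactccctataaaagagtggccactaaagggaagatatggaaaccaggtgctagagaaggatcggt
Mmp3, chr9:7445672-7445851, plus strand: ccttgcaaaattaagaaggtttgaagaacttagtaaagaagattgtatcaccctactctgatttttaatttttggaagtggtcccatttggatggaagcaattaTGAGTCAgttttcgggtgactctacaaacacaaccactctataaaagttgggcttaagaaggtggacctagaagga
Mmp13, chr9:7272364-7272543, plus strand: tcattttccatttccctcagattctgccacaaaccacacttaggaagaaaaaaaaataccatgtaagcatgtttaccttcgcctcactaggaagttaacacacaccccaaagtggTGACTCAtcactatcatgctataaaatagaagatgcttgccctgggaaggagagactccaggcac
Plaur, chr7:24462333-24462512, plus strand: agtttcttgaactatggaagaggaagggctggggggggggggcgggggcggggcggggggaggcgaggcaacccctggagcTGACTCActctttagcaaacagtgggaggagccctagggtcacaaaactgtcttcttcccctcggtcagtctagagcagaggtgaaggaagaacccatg
In each of the 4 the site lies within the last 70 bases before the start, beginning at base -63 in Mmp10, -46 in Mmp3, -35 in Mmp13 and -69 in Plaur. Mmp12 and Il6 also hold the site and were called lower with A. faecalis than with S. aureus, but are not shown. Their sites begin at base -44 in Mmp12 and -249 in Il6. In the full window of 300 bases (250 before and 50 after the start), 7 of the 11 target genes with an entry held the site (Il6, Ivl, Mmp10, Mmp12, Mmp13, Mmp3 and Plaur), against 5.2% of 32851 promoters of the same length. Several of these genes became textbook AP-1 targets because of this site, so the share describes the list and says nothing of binding in these wounds. Ivl, which holds the site, was not called in any comparison by edgeR.

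Of the members, 7 had an entry in the promoter table, and none of their windows held TGACTCA. Fosl1, Egr1 and Egr3 had no entry, so their promoters were not searched for any motif. Jun held the variant TGACATCA, found in 3.62% of all promoters, and Egr2 held the CArG box, the site of serum response factor, found in 1.63%. No window of a member held the full cAMP response element TGACGTCA, found in 1.79% of all promoters. Both strands were searched for every motif. Bases outside the windows were not searched, so a CArG box farther from the start, in Fos or another member, would not have been found. Both matches are in capitals below, over the same span around the start.
Jun, chr4:95052193-95052372, minus strand: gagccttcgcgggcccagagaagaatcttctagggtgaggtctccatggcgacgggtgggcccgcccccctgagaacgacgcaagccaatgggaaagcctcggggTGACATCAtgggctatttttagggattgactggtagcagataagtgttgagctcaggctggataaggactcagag
Egr2, chr10:67537719-67537898, plus strand: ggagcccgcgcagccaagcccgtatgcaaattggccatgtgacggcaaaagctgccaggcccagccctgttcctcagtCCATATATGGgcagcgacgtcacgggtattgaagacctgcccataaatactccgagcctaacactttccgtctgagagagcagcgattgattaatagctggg
The Jun variant begins at base -45 and the CArG box of Egr2 at base -72 from the start shown. Egr2 has further listed starts nearby, and 4 of its windows held a CArG box, though not all of them the copy shown. Neither Jun nor Egr2 was called in any comparison by edgeR.

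Textbook targets of EGR proteins include growth factors and tissue factor. Of 12 listed genes, Vegfa and Pdgfa rose with S. aureus against vehicle, none fell, and the median log2 fold change was 0.37. Vegfa, the main angiogenic growth factor, stood at 130, 233, 211 and 251 CPM with S. aureus, against 69.5, 106, 96.2 and 129 CPM with vehicle (1.04, SE 0.226, edgeR adjusted p = 0.0241), a call lost without S. aureus replicates 2, 3 or 4. Pdgfa, a growth factor for fibroblasts, rose by 0.55, with an SE of 0.124 (adjusted p = 0.0269), and its call was lost without vehicle replicate 1 or S. aureus replicates 2, 3 or 4. The summed endothelial markers were higher in the same libraries, with 1140 to 1330 CPM with S. aureus, and 691 to 1010 CPM in the vehicle group. Of the 5 markers Emcn and Pecam1 were called higher, and Cdh5 was not called though its groups did not overlap. Kdr and Tek overlapped between the groups (log2 fold changes 0.09 and -0.05). The part of endothelium was not tested. With A. faecalis against S. aureus 5 of the 12 were lower and 1, the adhesion molecule Icam1, was higher. F3, tissue factor, stood at 55.6, 54.4, 48.6 and 54.5 CPM with A. faecalis, against 75.4, 80.6, 94.6 and 73.1 CPM with S. aureus (-0.60, SE 0.103, adjusted p = 0.00403). With A. faecalis against vehicle 0 of 12 were called, and the median was -0.06.

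**Figure D4:**
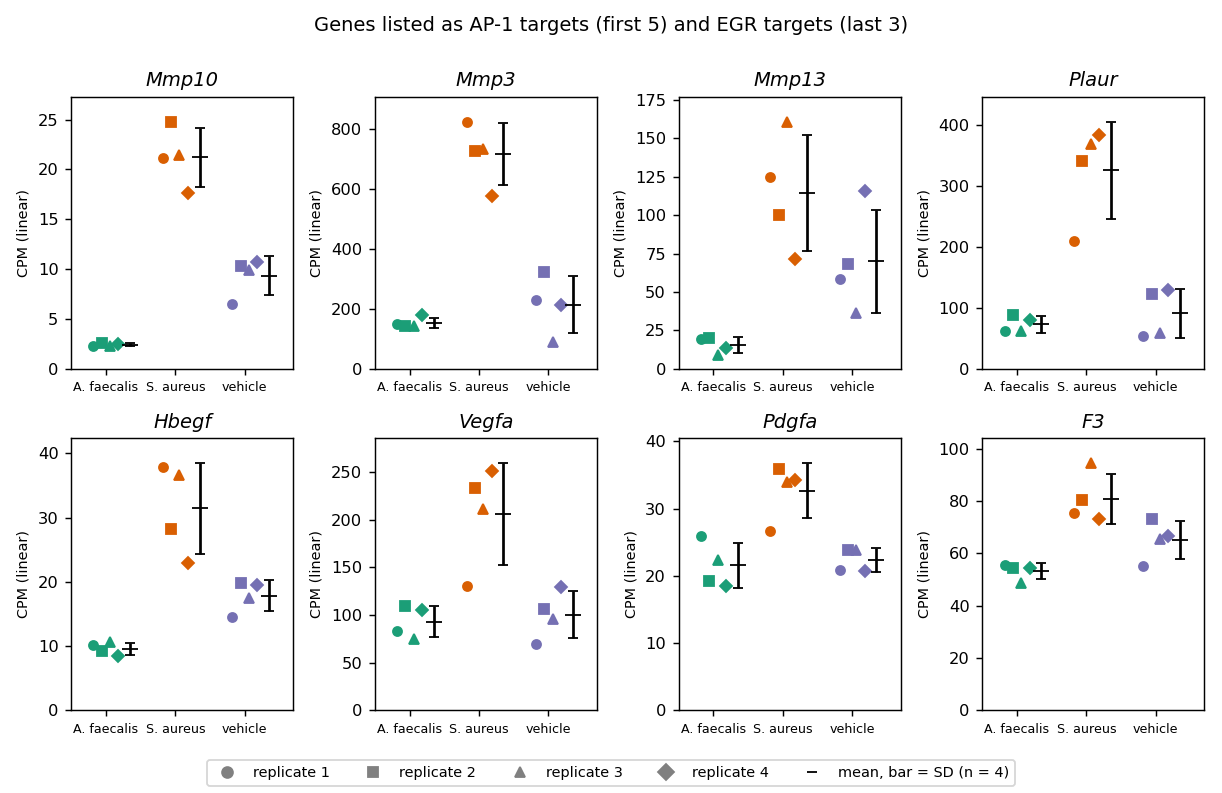
CPM in every library (linear axis from 0) of 5 genes listed as AP-1 targets (Mmp10, Mmp3, Mmp13, Plaur, Hbegf) and 3 listed as EGR targets (Vegfa, Pdgfa, F3); shapes give the replicate and bars the mean and SD of 4 libraries. The A. faecalis libraries lie below all vehicle libraries for Mmp10, Mmp13 and Hbegf, and within or near the vehicle range for the others.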

How the data were processed

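The authors deposited 1 table of estimated counts by gene. The submitters' processing notes list kallisto 0.48.0, DESeq2 1.34.0, R 4.1.3, FastQC 0.12.1 and the build GRCm39, without saying what each did. Kallisto divides reads shared by similar transcripts, and the step to gene level is not described in the labels. The entry without a gene name (0.00909% to 0.0151% of a library) was left out, and counts were rounded.

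Per the series text each library is a mouse. One edgeR 4.0.16 model (R 4.3.3) with a mean per group took all 12 libraries, with TMM scaling, filterByExpr (minimum count 10, total 15) and the robust two-sided quasi-likelihood test. Replicates differed beyond counting noise (chi-square per degree of freedom 29.6 to 486). Log2 CPM used a prior count of 2. Scripts were tested on simulated data.

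The members and lists were chosen with earlier results of these data known. Named were all members, up to 3 called genes per list and comparison by smallest adjusted p, 7 preset genes and the 3 closest genes to Fosl1, Fos and Egr1. One of these is not reported here. Others are mentioned with a count. Of 172 list symbols all were found, 6 under an older name, and 170 were tested. Replicate numbers did not pair libraries (correlation of deviations -0.21 to 0.18). Alternatives were other scalings, filters, tests (DESeq2 1.42.0, limma 3.58.1), fits of 2 groups, a replicate block, a threshold of 0.1 and leaving out each library.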

Additional observations from a re-analysis of the deposited data

How the results depend on the processing

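The count of members called for A. faecalis against vehicle was 0 under every alternative run. For S. aureus against vehicle it was 2, and it became 5 with DESeq2, 4 with limma-voom, 5 at a threshold of 0.1, 0 when only the 2 groups were fitted, 5 with the replicate block and 0 to 5 with 1 library left out. For A. faecalis against S. aureus it was 5, and it became 7 with DESeq2, 7 when only the 2 groups were fitted, 7 at a threshold of 0.1, 4 without a filter and 2 to 6 with 1 library left out. The replicate block also gave 5 there, with Fosl2 called and Fosb not. Over all genes, DESeq2 called 120, 2876 and 3474 genes where edgeR called 2, 1246 and 2310 (A. faecalis against vehicle, S. aureus against vehicle, A. faecalis against S. aureus). A threshold of 0.1 gave 2859 and 3650 in the last 2 of these, and the fit of only S. aureus and vehicle libraries gave 350. With 1 library left out the 3 counts ranged over 2 to 10, 260 to 1750 and 1313 to 3457. The cause was not tested.

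Directions turned only in genes that were not called. For A. faecalis against vehicle, limma-voom and the replicate block gave log2 fold changes of 0.31 and 0.18 for Fosl1, 0.07 and 0.04 for Fosl2, and 0.11 and 0.07 for Junb. Leave-one-out ranges crossed 0 for Fos (-0.38 to 0.03), Fosl1 (-0.29 to 0.33), Fosl2 (-0.21 to 0.19), Jun (-0.09 to 0.41), Junb (-0.25 to 0.24), Egr3 (-0.03 to 0.52) and Atf3 (-0.25 to 0.17). They also did for S. aureus against vehicle in Jund (-0.07 to 0.31), Nab1 (-0.07 to 0.09) and Atf3 (-0.02 to 0.35). For A. faecalis against S. aureus the range of Atf3 crossed 0 (-0.39 to 0.01). The numbers of replicates do not pair mice: only 4 of 24 checks found a library most like the same number in another group. Of the members, Egr3 had the fewest counts.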
